A study of Rattus norvegicus with 2 samples.

Results

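The growth hormone, STAT5 and IGF axis of rat liver was followed here through 10 genes: Ghr, Stat5b, Igf1, Igfals, Igfbp1, Igfbp2, Igfbp3, Socs2, Cish and Bcl6. They were chosen by name, by their place in the pathway, out of 33719 gene names with a probe on the array. Earlier results of these data were known at that choice. All 10 were found, through 18 probes on 36 spots, and all 18 probes carried the scanner software's flag for a signal well above background in both diets on both arrays, so that no gene entered the test through one diet alone. Wistar rats (spelled Wister in the labels) of 7 weeks received a diet without choline or a control diet for 10 days, and their total liver RNA was compared on 2 oligonucleotide arrays, each read in Cy3 and Cy5. Array 1 carried the choline-deficient RNA in Cy5 and the control RNA in Cy3, and array 2 carried them the other way round. The labels give neither the sex of the rats nor the composition of the control diet. They speak of 4 choline-deficient rats but do not state if each array held other rats, pooled RNA or RNA shared by both arrays. Every p-value below therefore rests on differences between 2 arrays, which may be technical. The spread used was mostly pooled over all genes, with 63 prior degrees of freedom against 1 residual for the gene itself. A gene whose own 2 values lie far apart, such as Ambp below, can thus still pass.

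Growth hormone from the pituitary binds its receptor on hepatocytes, and the receptor-bound kinase JAK2 phosphorylates STAT5, which enters the nucleus. STAT5 switches on Igf1, whose product is the main circulating growth factor, and Igfals, whose product holds IGF-I and IGFBP-3 together in a long-lived complex in blood. STAT5 also switches on the feedback inhibitors Socs2 and Cish, and it represses Bcl6, a transcriptional repressor that recognises DNA sites much like those of STAT5. The pulsatile or continuous pattern of the hormone sets many of the differences between male and female liver. In bulk RNA, fewer cells of a type and less RNA per cell cannot be told apart.

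On each array 43379 spots were for genes, and from 53.5% to 63.2% of them were well above background, depending on dye and array, with 0 saturated. Across the 18195 genes tested, limma called 795 higher and 773 lower after choline deficiency (adjusted p under 0.05, Benjamini-Hochberg), and the median log2 ratio of choline-deficient over control was 0.00. A call here is relative to the other genes of the array, since each array was centred on them. The whole table lost all of its calls with the ratio the authors deposited in the scanner files (0 called, 2122 at an unadjusted p under 0.05). It also lost them with median centring in place of the intensity-dependent curve (0 called, 19 at an unadjusted p under 0.05). Every call below, those of Bcl6, Igfals and Igf1 included, therefore rests on the offset-corrected, curve-normalized signals and their pooled spread. With the deposited ratio the fit had 2.43 prior degrees of freedom in place of 63. Bcl6 stood at -1.66 with that ratio, against -1.55 in the main fit. The part of the pooled spread in the lost calls was not tested.

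Bcl6, Igfals and Igf1 fell, and the remaining 7 genes did not pass. That is 3 of 10 genes lower, against 4.25% of all genes tested, and 0 of 10 higher, against 4.37%. Because the 10 were chosen with earlier results of these data known, setting them beside these shares is not a test. The 3 falls, each read from the brightest probe, were unequal in size. Bcl6 was 2.93-fold lower, and Igfals and Igf1 were 1.41-fold and 1.38-fold lower. The second, dimmer Bcl6 probe was at a log2 ratio of -0.26 and did not pass, as described below. Both arrays put 8 of the 10 below 0, a share to be read beside 27.0% over all genes, while Igfbp1 was above 0 on both and Socs2 had opposite signs. The median log2 ratio of the 10 genes was -0.24. Among all genes ordered from the lowest mean log2 ratio, Bcl6 was number 3, Igfals number 241 and Igf1 number 287.

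**Figure D1:**
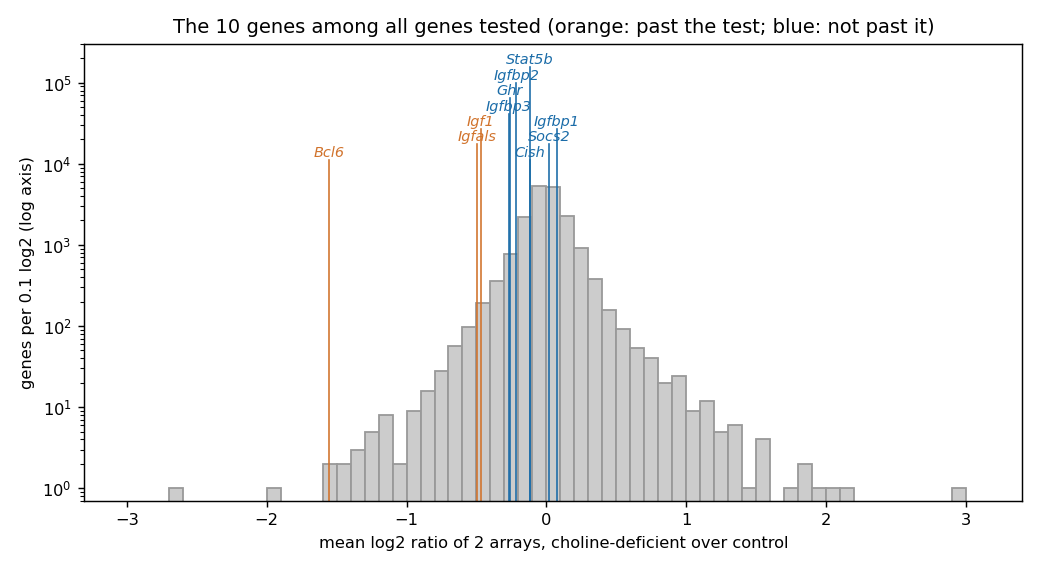
Histogram of the mean log2 ratio of 2 arrays (choline-deficient over control, x axis) for the 18195 genes tested, with the number of genes in bins of 0.1 on a log axis and a line at each of the 10 genes. Bcl6 at -1.55 lies in the far left tail, Igfals and Igf1 near -0.5, and the other 7 between -0.27 and 0.07.

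The hormone's receptor and its transcription factor were examined first. Ghr encodes the growth hormone receptor, and its brightest probe lies on chromosome 2 from 52524230 to 52524289, on the minus strand (rat build rn4, as in the array files). Normalized log2 levels at this probe were 14.37 in control and 14.11 in choline-deficient liver on array 1, and 14.41 and 14.14 on array 2. Both choline-deficient values were below both control values, and the log2 ratio was -0.26 ± 0.02 (SD, n = 2 arrays), with a 95% interval of the pooled fit from -0.46 to -0.06, and did not pass (limma adjusted p = 0.106).

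The remaining Ghr probes gave larger differences. In a fit over all 22364 kept probes, in which 3.63% of probes were called lower, the probe at 52496746 to 52496805 was at -0.46 ± 0.01 (SD, n = 2 arrays, limma adjusted p = 0.00266). The probe at 52498209 to 52498268 was at -0.45 ± 0.08 (adjusted p = 0.00377). Both lie downstream of the brightest probe on the transcribed strand, with 27.5 kb between the outermost probes. The array files list 2 Ensembl transcripts for the brightest probe and 1 for each of the others; the rat gene is also known to yield a short transcript for a soluble growth hormone-binding protein, which lacks the cytoplasmic part of the receptor. The brightest probe was above the mean of the other two by 0.24 on array 1 and 0.15 on array 2, a difference given without a test. Which transcripts each probe measured was not tested. With the mean of the 3 probes in place of the brightest, Ghr passed (-0.39, limma adjusted p = 0.00423).

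Stat5b, the STAT5 gene that predominates in liver, has a single probe on chromosome 10 from 89722209 to 89722268. Its log2 ratios were -0.08 and -0.16 on arrays 1 and 2, a mean of -0.12 ± 0.05 (SD, n = 2 arrays) that did not pass (limma adjusted p = 0.677, 95% interval from -0.32 to 0.08). The probe was dim, with a lowest raw signal of 2.37 times the background fitted by the scanner software, and the deposited log ratio gave -0.20.

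Igf1 encodes insulin-like growth factor I. At its brightest probe (chromosome 7 from 24604715 to 24604774), normalized log2 levels were 16.63 in control and 16.18 in choline-deficient liver on array 1, and 16.65 and 16.16 on array 2. Both control values lay above both choline-deficient values, and the difference between arrays within a diet was small beside the gap. Levels were scaled between the arrays, which may share RNA, so that difference is no measure of the spread between rats. Igf1 was 1.38-fold lower, a log2 ratio of -0.47 ± 0.03 (SD, n = 2 arrays) with a limma adjusted p = 0.000566. The call was lost when the spread was pooled along an intensity trend (adjusted p = 0.0884), with the value unchanged.

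All 5 Igf1 probes were below 0 on both arrays, and 4 of them were called in the fit over all kept probes. Their mean log2 ratios ranged from -0.54, at 24607739 to 24607798, to -0.18, at 24533750 to 24533809, and the outermost probes are 75.8 kb apart. For 2 of the probes the files give genome stretches of 5094 and 3239 bases for 60 bases of probe. Their log2 ratios were -0.44 ± 0.23 and -0.34 ± 0.15 (SD, n = 2 arrays). The array files list 2 Ensembl transcripts for the probe with 5094 bases and 0 for each of the other Igf1 probes, the brightest included. The probe at -0.18 had a lowest raw signal of 1.90 times the background fitted by the scanner software, Feature Extraction, and was printed on 10 spots of each array. Its spots ranged from -0.30 to -0.13 around a median of -0.22 on array 1, and from -0.29 to -0.02 around -0.12 on array 2, so that all 10 were below 0 on each array. With the deposited log ratio, the 5 probes lay closer together, from -0.52 to -0.36.

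Igfals encodes the acid-labile subunit, the liver-made protein that completes the circulating IGF complex. Its single probe lies on chromosome 10 from 14130378 to 14130437. Normalized log2 levels were 11.67 in control and 11.13 in choline-deficient liver on array 1, and 11.65 and 11.19 on array 2. The diets did not overlap, and Igfals was 1.41-fold lower, at -0.50 ± 0.06 on the log2 scale (SD, n = 2 arrays, limma adjusted p = 0.000243). The intervals of Igfals (-0.70 to -0.29) and Igf1 (-0.67 to -0.27) cover nearly the same range, and the difference between these genes was not tested.

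**Figure D2:**
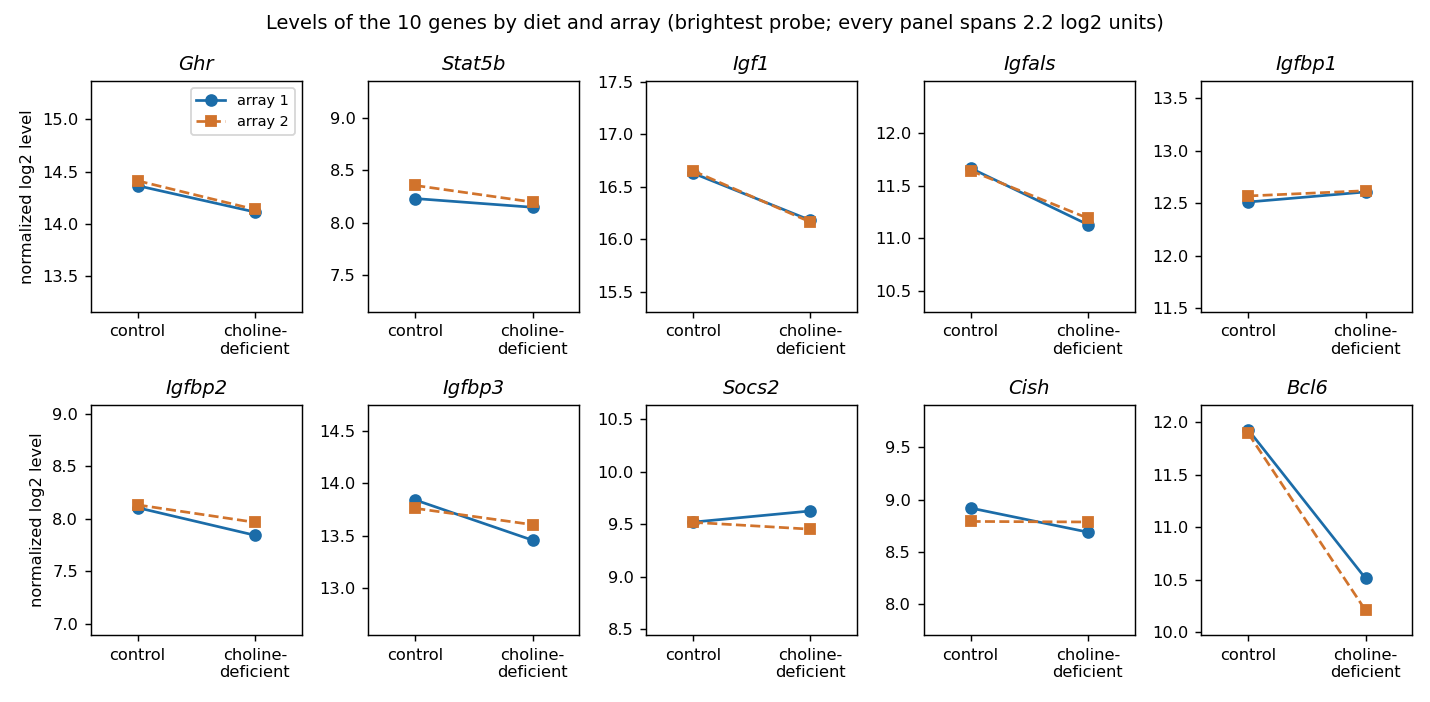
Normalized log2 level of the brightest probe of each of the 10 genes in control and choline-deficient liver, one line per array, with each panel spanning 2.2 log2 units on its own axis. Both lines fall steeply for Bcl6 and more gently for Igf1 and Igfals, and they run in opposite directions for Socs2.

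The IGF-binding proteins carry IGFs in blood and tissue and regulate their access to receptors. None of the 3 genes measured here passed. Igfbp3, which in rat liver is made mostly by non-parenchymal cells, was at -0.38 and -0.16 on arrays 1 and 2 at its brightest probe (chromosome 14 from 87960494 to 87960553), a mean of -0.27 ± 0.16 (SD, n = 2 arrays, limma adjusted p = 0.0973). Its second probe, on 10 spots per array, was at -0.25 and -0.18, with all 10 spots below 0 on each array, from -0.33 to -0.17 on array 1 and from -0.25 to -0.11 on array 2. The array difference of the brightest probe was therefore not seen to that extent in the second probe. The summed level of 13 liver endothelial cell markers in choline-deficient liver was 77.0% and 82.1% of control on arrays 1 and 2. Of these markers only Kdr passed, 8 lay below 0 on both arrays, and the median log2 ratio was -0.12; their part in the Igfbp3 values was not tested.

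Igfbp1, a hepatocyte gene that insulin represses and fasting and stress induce, was at 0.10 and 0.05 on the arrays, a mean of 0.07 ± 0.03 (SD, n = 2 arrays, limma adjusted p = 0.869, 95% interval from -0.13 to 0.27). With the deposited log ratio it was at 0.18 and -0.01. Igfbp2, another fasting-responsive binding protein, was at -0.26 and -0.17, a mean of -0.21 ± 0.07 (adjusted p = 0.242, interval from -0.42 to -0.01). Igfbp2 was a dim probe, with a lowest raw signal of 2.02 times the background that Feature Extraction fitted there. With the deposited log ratio it stood at -0.44 ± 0.19.

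The feedback inhibitors are among the most direct readouts of STAT5 in liver, since both are induced within a short time of a growth hormone pulse. Neither passed. Socs2, which encodes a suppressor of cytokine signalling that limits growth hormone action, was at 0.11 on array 1 and -0.07 on array 2, a mean of 0.02 ± 0.12 (SD, n = 2 arrays, limma adjusted p = 0.979, 95% interval from -0.18 to 0.22), and -0.02 with the deposited log ratio. Cish, which encodes the SH2 protein CIS, was at -0.23 and -0.01, a mean of -0.12 ± 0.16 (adjusted p = 0.695, interval from -0.32 to 0.09). The Cish probe was dim, with a lowest raw signal of 3.57 times the fitted background, and the deposited log ratio was -0.35 on array 1 and -0.06 on array 2. Whether either gene differed from Igf1 or Igfals was not tested. A single time point cannot show where in a hormone pulse the livers were taken.

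The promoter of Cish is shown because it carries the pattern that STAT5 is known to bind, TTCNNNGAA, which reads the same on both strands. The window ran from 250 bases before to 50 bases after the annotated start in RefSeq (assembly GRCr8), and 9 of the 10 genes had an entry. Cish was the only one of the 9 with a match, and it had 4, starting at -241, -230, -136 and -119 from the gene's start. Of 33469 promoters of this length, 8.87% held at least 1 match and 0.547% held 2 or more. The stretch that holds all 4 is chr8:116850719-116850868 on the plus strand, from -250 to -101, with the matches in capitals.

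Cish: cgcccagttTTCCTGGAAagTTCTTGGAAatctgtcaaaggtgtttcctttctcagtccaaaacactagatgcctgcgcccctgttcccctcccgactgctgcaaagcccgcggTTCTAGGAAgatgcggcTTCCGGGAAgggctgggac

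A match is a description of these letters and not a measured binding site, and for the other 8 genes the absence of a match speaks only of these 300 bases. Known STAT5 sites of Igf1 lie far outside such a window.

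Bcl6 showed the largest difference of the 10 genes. Its brighter probe lies on chromosome 11 from 79030469 to 79030528 in rn4, and normalized log2 levels were 11.93 in control and 10.51 in choline-deficient liver on array 1, and 11.89 and 10.21 on array 2. The diets were far apart on both arrays compared with the difference between arrays within a diet, which may be technical. Bcl6 was 2.93-fold lower, at -1.55 ± 0.19 on the log2 scale (SD, n = 2 arrays, limma adjusted p = 1.27e-19, 95% interval from -1.76 to -1.35). The dimmer probe starts 1118 bases before the brighter one, from 79029351 to 79029410, and was at -0.22 and -0.30, a mean of -0.26 ± 0.05, which did not pass in the fit over all kept probes (adjusted p = 0.129). The probes therefore had the same sign on both arrays and differed in size: the brighter minus the dimmer was -1.20 on array 1 and -1.39 on array 2.

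The probe sequences are shown because the measured size for Bcl6 depends on which probe is read. The dimmer probe is printed whole, and the first 30 of the 60 bases of the brighter one are printed, both in the sense of the transcript.

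Bcl6 dimmer probe: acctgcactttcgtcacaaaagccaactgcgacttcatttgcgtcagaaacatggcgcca
Bcl6 brighter probe: agggtttggctgtgtctaaactgcattagt

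The 60 bases of the dimmer probe are free of stop codons in all 3 sense reading frames, and those of the brighter probe hold a stop in each of the 3. The raw signal of the dimmer probe stood little above background. It was 149 in control and 150 in choline-deficient liver on array 1, against fitted backgrounds of 92.3 and 78.4, and 209 and 139 on array 2, against 96.1 and 102. The brighter probe gave 2470 and 2091 on array 1 and 5484 and 885 on array 2. Raw signals of Cy3 and Cy5 are on different scales, and only the normalized values compare the diets.

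With the deposited log ratio, which follows subtraction of the fitted background, the dimmer Bcl6 probe was at -0.81 on array 1 and -0.77 on array 2, a mean of -0.79 ± 0.03 (SD, n = 2 arrays), and the brighter at -1.66 ± 0.14. The difference between the probes then shrank from -1.29 ± 0.14 to -0.87 ± 0.17. The mean of both probes on the corrected signals was -0.91, and Bcl6 passed with it.

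**Figure D3:**
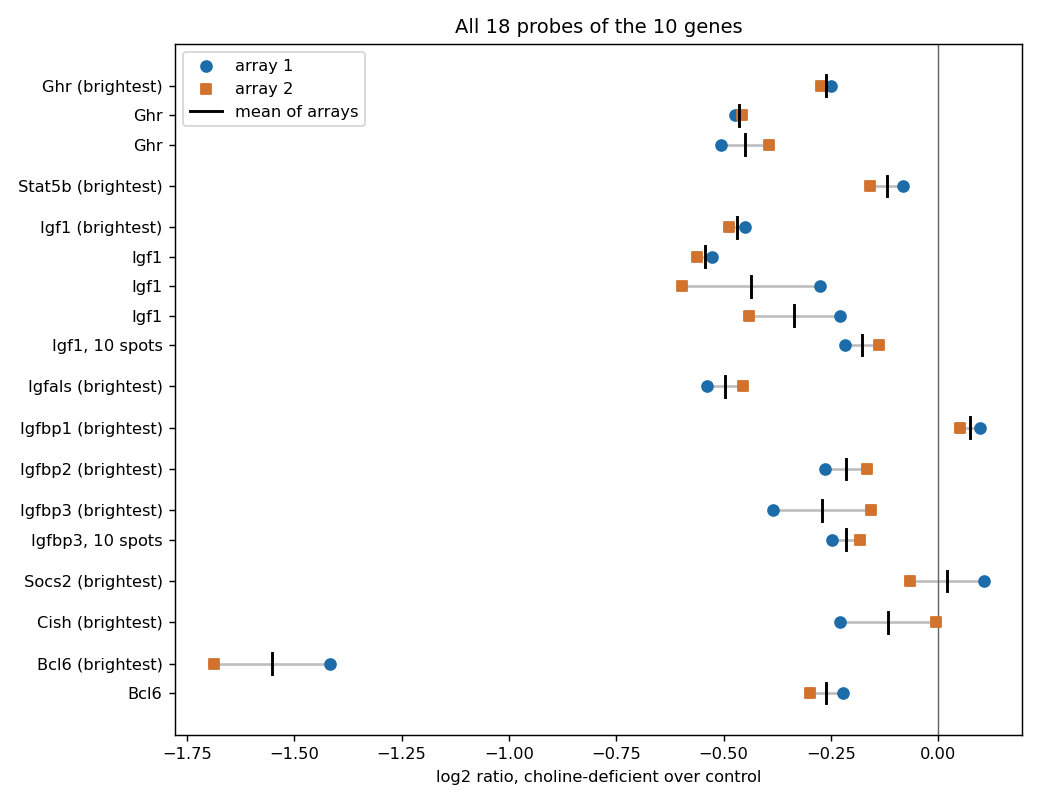
Log2 ratio of choline-deficient over control (x axis) for each of the 18 probes of the 10 genes, with a circle for array 1, a square for array 2 and a bar at their mean. Of the 18 probes, 16 lie below 0 on both arrays, and the probes of Bcl6 are the farthest apart of any gene.

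The same pattern was present in the other dim probes. In 6 of the 18 probes the lowest of the 4 raw signals was under 4 times the fitted background, a limit set after the values were seen. In all 6 the deposited log ratio was lower than the offset-corrected one, by 0.08 to 0.53 on the log2 scale. These were probes of Bcl6, Cish, Ghr, Igf1, Igfbp2 and Stat5b. In the other 12 the deposited value was between 0.11 lower and 0.03 higher, with a median difference of -0.01. With an offset of 16 in place of 50, the dimmer Bcl6 probe went from -0.26 to -0.33, against -0.79 deposited, and Igfbp2 from -0.21 to -0.25, against -0.44 deposited. The deposited ratio differs in background and normalization as well as in the offset, and the part of each was not tested.

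**Figure D4:**
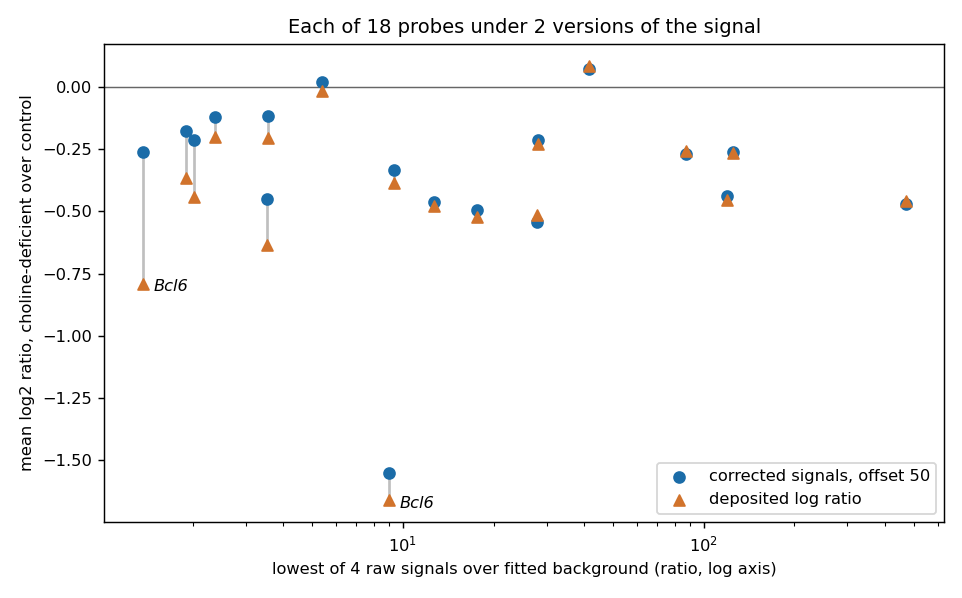
Mean log2 ratio of choline-deficient over control (y axis) for the 18 probes under 2 versions of the signal, against the lowest of the 4 raw signals over fitted background (x axis, log scale). Circles (offset of 50) and triangles (deposited log ratio) coincide at the right and separate at the left, most of all for the dimmer Bcl6 probe.

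The neighbours of the 10 genes in JAK-STAT, SOCS, IGF and insulin signalling were largely without calls. Of 55 further genes of these pathways, 53 had a probe and 46 were tested, and 2 fell and 0 rose, with a median log2 ratio of -0.01 against 0.00 over all genes. Over all genes tested 4.25% were called lower, so a count of 2 among 46 is near the background and is no result about the pathway. Irs2, the insulin receptor substrate that liver relies on in fasting, fell by 0.50 on the log2 scale (SD 0.28, n = 2 arrays, limma adjusted p = 0.000377), with -0.30 on array 1 and -0.69 on array 2. Igfbp4, a binding protein that restrains IGF action, fell by 0.39 (SD 0.08, adjusted p = 0.00537), and so was called where Igfbp1, Igfbp2 and Igfbp3 were not; these differences were not tested. The kinase Jak2 (0.17 ± 0.29), Stat5a (-0.04 ± 0.04), Stat3 (-0.06 ± 0.16), Socs3 (-0.03 ± 0.11), the insulin receptor Insr (-0.13 ± 0.03) and Igf1r (-0.01 ± 0.05) did not pass, and they were named after their values were seen.

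Genes that depend on growth hormone or differ between male and female rat liver had more calls lower than higher. Of 48 such genes listed, 43 were tested, 20 fell and 2 rose, against 4.25% lower and 4.37% higher over all genes, and the median log2 ratio was -0.29. Adh1, an alcohol dehydrogenase, was at -1.33 ± 0.04 (SD, n = 2 arrays), Car3, the carbonic anhydrase abundant in male rat liver, at -1.19 ± 0.08, Spink3, a trypsin inhibitor, at -1.17 ± 0.0034, and the steroid sulfotransferase Sult2a1 at -1.13 ± 0.21. The genes that rose were Onecut1, a hepatocyte transcription factor that growth hormone regulates (0.60 ± 0.14), and Ces2c, a carboxylesterase (0.31 ± 0.19). Cyp2c11, the male-specific cytochrome P450 that growth hormone pulses sustain, was at -0.07 and -0.54 on the arrays and did not pass (limma adjusted p = 0.0520). Several belong to gene families with close paralogs, and cross-hybridisation was not examined. The list was drawn up with earlier results of these data known. Of the 16 hepatocyte markers given below, 6 fell and 2 rose, with a median of -0.25. Whether the growth hormone-regulated list differed from these markers was not tested.

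**Figure D5:**
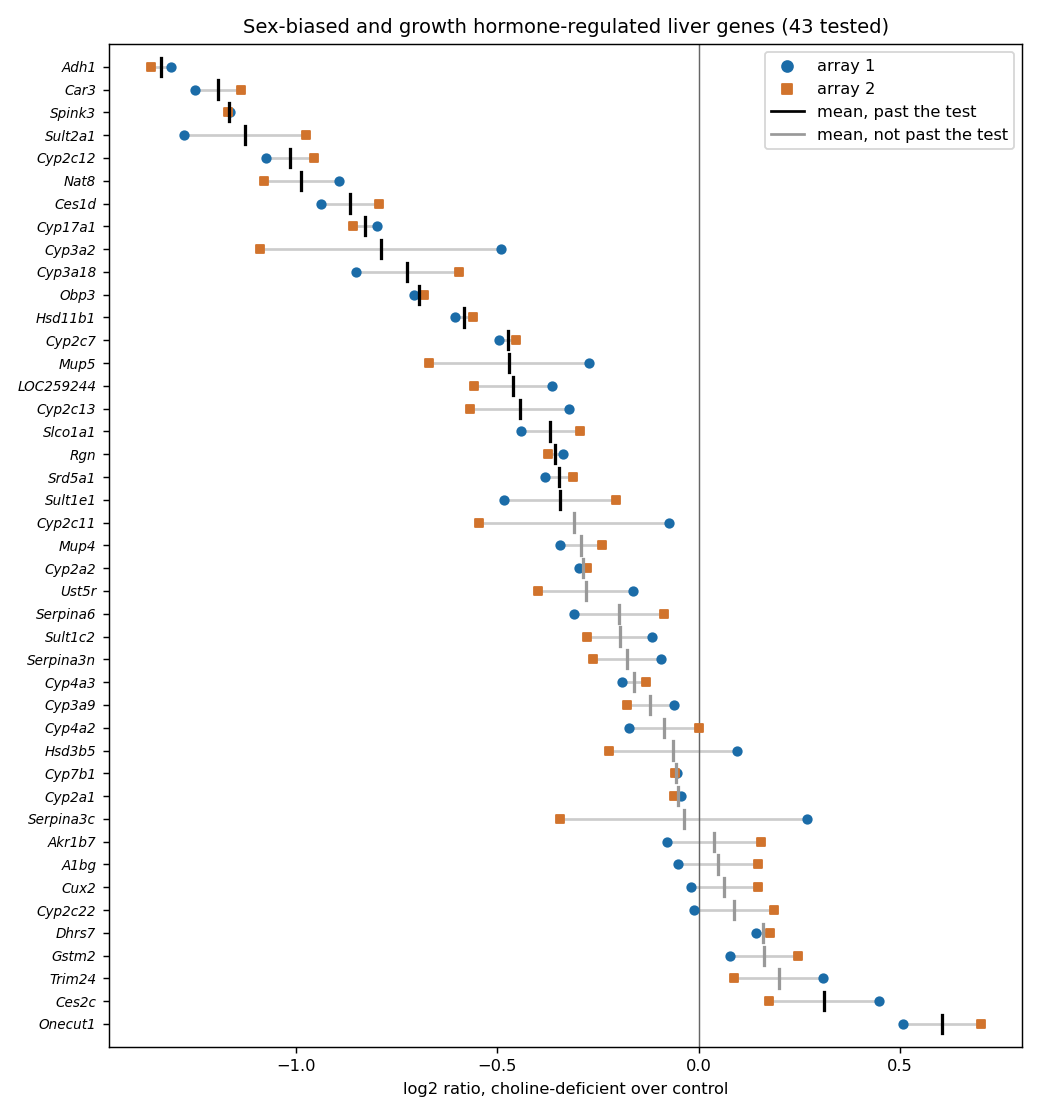
Log2 ratio of choline-deficient over control (x axis) for the 43 tested genes that are sex-biased or regulated by growth hormone, with circles for array 1, squares for array 2 and a bar at the mean, black where limma called the gene. The 20 called lower reach from -1.33 for Adh1 to -0.34 for Sult1e1, and the 2 called higher stand at the foot.

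Markers of the cell types in the tissue were read on the same arrays, and their counts stand beside 4.25% called lower and 4.37% called higher over all genes. Of 16 hepatocyte markers, all tested, 6 fell and 2 rose, with a median of -0.25. Among the 6, Ambp had opposite signs on the arrays (0.18 on array 1 and -1.01 on array 2). Of the 16, 9 lay below 0 on both arrays. The summed normalized level of the 16 ran from 1130430 to 1400790 in control and from 907362 to 1145070 in choline-deficient liver. It was 101% of control on array 1 and 64.8% on array 2. Of 13 tested endothelial markers 1 fell, a count near that background, with sums of 44476 to 48269 in control and 36498 to 37176 in choline-deficient liver. Of 13 tested macrophage markers 4 rose (Lyz2, Marco, Trem2 and Gpnmb) and 9 did not pass, with a median of 0.006. Clec4f, C1qa, C1qc and Emr1 lay below 0 on both arrays. The sums over the 13 macrophage markers were 46121 to 50347 in control and 45229 to 47367 in choline-deficient liver. Of 13 stellate cell markers 5 rose (Dcn, Col1a2, Tagln, Col1a1 and Vim) and 8 did not pass, with a median of 0.013. Lhx2, Pdgfrb and Lrat lay below 0 on both arrays. The sums over the 13 stellate markers were 13816 to 14213 in control and 15293 to 15865 in choline-deficient liver. Of 7 cholangiocyte markers Spp1 rose (1.52 ± 0.15 on the log2 scale, SD, n = 2 arrays) and 6 did not pass. The median of the 7 was -0.02, and their sums, Spp1 included, were 1674 to 1776 in control and 2353 to 2585 in choline-deficient liver. Of 12 markers of fat, pancreas and muscle, 8 were not well above background, among them Adipoq, Prss1 and Ckm, and Cfd fell; the sum over the 4 tested was 87.8% and 91.1% of control. The part of these shifts in the values of Bcl6, Igf1, Igfals and the other genes was not tested.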

How the data were processed

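Per the labels, total RNA from livers of both diets was dye-labelled and hybridised in pairs. Images were read with Agilent Feature Extraction 9.5.3.1, per the file headers (9.5 per the submitters' processing notes); probe positions refer to rn4. The deposited raw intensity values of each dye, local and fitted background included, were used, and the authors' deposited log10 ratio (background-subtracted, spatially detrended and dye-normalized, per the file headers) served as an alternative.

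With limma 3.58.1 in R 4.3.3, mean signals were corrected by normexp on the local background (offset 50) and loess-normalized by array, control spots having weight 0. Outlier spots (174 and 151) were left out, spots of a probe averaged, and ratios turned to log2 of choline-deficient over control. Probes well above background on both arrays in at least 1 diet were kept, and each gene was read from its brightest probe. Levels are per channel after A-quantile scaling. lmFit and eBayes tested ratios against 0, two-sided, with 1 residual and 63 prior degrees of freedom, and p-values were adjusted by Benjamini-Hochberg across the genes; SDs are over 2 arrays, and their number limits the precision. The procedure was tested on simulated data, with the array differences shuffled among genes. The shuffle was separate for each array, so spread particular to a gene or a signal level was not kept. The simulated counts therefore do not describe genes of unusual spread. It called 50% of 50 genes changed 1.3-fold and 94% of 50 changed 1.5-fold, so smaller changes can go uncalled. In that same run it also called 32 of 17995 unchanged genes. With no effect simulated, it called 13 of 18195 genes.

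The text names the 10 genes and, of the further lists, up to 4 called genes per direction with the largest mean change; others were chosen after their values were seen. Genes, lists and alternatives were chosen with earlier results of these data known, and the fitted background was added as an alternative after seeing the data. All 10 symbols matched RefSeq (GRCr8), used for names and promoters only.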

Additional observations from a re-analysis of the deposited data

How the results depend on the processing

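With the deposited log ratio, limma called 0 genes in place of 1568, and 0 of the 10 genes in place of 3 (4 at an unadjusted p under 0.05); Bcl6 was at -1.66, Igfals at -0.52, Igf1 at -0.46, Socs2 turned to -0.018, and the difference between the Bcl6 probes was -0.87. With median centring, 0 genes and 0 of the 10 were called (0 of the 10 at an unadjusted p under 0.05); Bcl6 was at -1.36, Igf1 and Igfals at -0.31, Cish turned to 0.020, and the Bcl6 probes differed by -1.11. This centring leaves the dye curve in the ratios, and Igf1 then stood at 1.07 on array 1 and -1.69 on array 2. With an intensity trend the value of Igf1 stayed at -0.47 without passing, and with the mean of its probes Ghr passed at -0.39. The other 70 of 80 values of the 10 genes under the alternatives kept their direction and side of the threshold, including those with an offset of 16, no filter on dim probes and the fitted background. Each array alone gives a value with no test: from -1.42 to -1.69 for Bcl6, and 0.11 and -0.07 for Socs2, which changed sign. The test of the within-array ratio against 0 already pairs the diets by array, so no further replicate block was fitted. Dim probes limit what can be said of the size of change in Bcl6, Igfbp2, Stat5b and Cish.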

Other observations

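Genes that predominate in male or in female rat liver are given here as values without a test, in lists drawn up after the values were seen. Over all genes 4.25% were called lower and 27.0% lay below 0 on both arrays. Of 12 male-predominant genes, such as Cyp2c13, Cyp3a2, Obp3 and Car3, all were tested and 8 fell, the named genes among them. Of the 12, 11 lay below 0 on both arrays, and the median log2 ratio was -0.41. Of 9 female-predominant genes 8 were tested and 4 fell, Cyp2c12, Sult2a1, Cyp2c7 and Srd5a1, 6 lay below 0 on both arrays, and the median was -0.23. None rose in either list by limma's test. The female-predominant Cux2 (0.06 ± 0.12, SD, n = 2 arrays) and A1bg (0.05 ± 0.14) had opposite signs on the arrays. All genes named in this paragraph also belong to the growth hormone-regulated list above, so their calls were already counted there.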
